A study of Homo sapiens with 27 samples.

Results

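The receptor tyrosine kinases described here are EGFR, ERBB2, ERBB3, MET, IGF1R, INSR, AXL, FGFR1 and KIT, 9 of the 61533 genes in the count table. They were chosen by name, as receptors through which tumor cells are known to bypass a targeted drug, and each symbol matched 1 gene. The cells were 92.1, an established human uveal melanoma line that carries a mutant GNAQ, the alpha subunit of a heterotrimeric G protein. They were kept either in 100 nM VS-4718, a small-molecule inhibitor of focal adhesion kinase (FAKi), or in the vehicle DMSO, and medium and drug were renewed every 72 h over 21 days. mRNA was sequenced from 9 groups of 3 libraries, of which 1 was taken at day 0 in DMSO and the others from either treatment on days 3, 7, 14 and 21, so that all 27 libraries came from a single cell line and a single dose. The study's methods state 3 platings per condition and 3 biological repeats of the full experiment, but not which of these the replicate number counts, so the p-values measure the spread between these libraries, whichever it is. The cells were passaged continually, so libraries of different days may come from the same cultures. The main fits over several days treated such libraries as independent.

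Receptor tyrosine kinases bind growth factors outside the cell and phosphorylate each other and their adaptors inside it, which feeds the RAS-ERK and PI3K-AKT pathways. Focal adhesion kinase, the product of PTK2, relays signals from integrins and from several of these receptors into the same pathways. In melanocytic tumors MET, the receptor of hepatocyte growth factor, ERBB3, which binds neuregulins, and IGF1R, which binds insulin-like growth factors, are known routes around inhibitors of RAF, MEK and other kinases. AXL and EGFR are known to mark melanoma cells that have lost the melanocytic program, and KIT is the stem cell factor receptor of normal melanocytes.

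The members share the catalytic loop of the kinase domain, and ERBB3 departs from the rest at its central residue. The stretches below are the 24 coding bases around that residue, read 5′ to 3′ on the coding strand of hg38 with GENCODE 44 transcripts, and the capitals mark its codon. They are shown because ERBB3 and MET, the members that changed most, differ here: the codon reads asparagine in ERBB3 and aspartate in MET and in the others, and ERBB3 is known as a receptor with little kinase activity of its own that signals through partners such as ERBB2.
EGFR, chr7:55191752-55191775, plus strand: caccgcGACctggcagccaggaac
ERBB2, chr17:39725082-39725105, plus strand: cacaggGACttggccgctcggaac
ERBB3, chr12:56097818-56097841, plus strand: catagaAACctggctgcccgaaac
MET, chr7:116782069-116782092, plus strand: cacagaGACttggctgcaagaaac
IGF1R, chr15:98939300-98939323, plus strand: cacagaGACcttgctgcccggaat
INSR, chr19:7122651-7122674, minus strand: catcggGACctggcagcgagaaac
AXL, chr19:41253680-41253703, plus strand: caccggGACctggcggccaggaac
KIT, chr4:54733076-54733099, plus strand: cacagaGACttggcagccagaaat

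The libraries held 12161994 to 43651551 counts each. Genes of the melanocyte lineage were abundant, with a summed level of 7 markers between 9365 and 15290 CPM, the count scaled to the size of its library, and leukocyte and endothelial markers stayed under 1 CPM in sum in every library. The 4 epithelial markers summed to at most 2.247 CPM and the 4 fibroblast markers to 5.626 to 16.91 CPM, nearly all of it COL1A1 and LUM, while COL3A1 and DCN were at or near 0. Some of these markers moved with the drug. The melanocyte sums overlapped between treatments at day 3 only: they were 11200 to 11710 CPM in DMSO and 12280 to 14380 CPM in FAKi at day 7, 9365 to 10110 and 12220 to 12720 CPM at day 14, and 11730 to 13980 and 14950 to 15290 CPM at day 21. Most of each sum came from PMEL and TYRP1, at means of 4939 and 5552 CPM. In the mean over days, 3 of the 7 rose, beside 15.7% of all genes called: the pigment genes PMEL (0.28, adjusted p = 0.0181), TYR (0.60, adjusted p = 1.895e-07) and DCT (1.02, adjusted p = 0.000126). None of the others was called. At day 21 the group means of MLANA and MITF were lower in FAKi, at 663.9 and 130.4 CPM against 780.3 and 153.6 CPM in DMSO, and those of the others were higher. LUM, a fibroblast marker, fell by 1.15 at day 21 (adjusted p = 0.0487), from a mean of 4.62 CPM in DMSO to 2.02 CPM in FAKi. The part of these shifts in the receptor changes was not tested. PTK2, which encodes the drug's target, was present at 101.2 to 163.9 CPM, and its mean FAKi effect was 0.04 on the log2 scale (adjusted p = 0.786). GNAQ ranged from 24.7 to 56.1 CPM, with a mean effect of -0.12 (adjusted p = 0.384), or -0.22 (adjusted p = 0.0265) when corrected for transcript length and GC content, and it was called in 2 of 33 alternative analyses. In DMSO at day 21, mitochondrial genes took 5.49%, 5.49% and 9.75% of counts, against 10.7% to 11.2% in FAKi at that day, and 2 of the 3 DMSO libraries of day 3 held 8.61% and 9.59%, against 18.1% in the other and 16.8% to 18.7% in FAKi. Long transcripts moved with these differences: among genes of at least 1 CPM, the median log2 fold change at day 21 was 0.15 for counted lengths of 4 to 13 kilobases and -0.26 for lengths under 2 kilobases, and at day 3 it was 0.18 and -0.22, whereas at days 7 and 14 every such median lay within 0.02 of 0. The counted transcripts of 8 members fall in the longer class, so values after that correction, chosen after the data were seen, are given beside many results of the members. Most results of other genes are printed without it, also those of days 3 and 21. A value without a corrected one beside it is not thereby shown to be unmoved.

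Of the receptors, 6 were expressed and 3 were at the limit of detection. Per kilobase of counted transcript, the mean level over the 27 libraries was 20.9 CPM for MET, 19.0 for ERBB3, 13.9 for ERBB2, 9.48 for FGFR1, 3.98 for IGF1R and 1.67 for INSR. From ERBB2 downward this order held in all 27 libraries. MET was higher than ERBB3 in 13 of 27 libraries, and their order differed by group. MET was the higher in every library of DMSO day 14 and of FAKi days 7, 14 and 21. It was the lower in every library of the other DMSO groups, and in FAKi at day 3 the order was mixed. ERBB3 lay above ERBB2 in 21 libraries. ERBB3 had the highest group mean per kilobase in DMSO at days 0, 3, 7 and 21 and in FAKi at day 3, and MET in the other 4 groups. By the same means MET lay below ERBB2 in DMSO at days 0, 3 and 21, and in DMSO at day 3 also below FGFR1.

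EGFR, AXL and KIT were nearly silent. EGFR had 76 counts over all libraries, 0 in 9 of them and at most 16, in DMSO day 14 replicate 2. AXL, a receptor for GAS6, had 40 counts, 0 in 9 libraries and at most 9, in DMSO day 14 replicate 1. KIT had 17 counts, 0 in 19 libraries, and 10 of the 17 were in DMSO day 14 replicate 2, the library that also held most EGFR. A count of 0 allows up to 3 counts, which is 0.0687 to 0.247 CPM depending on the library, and these limits cover counting error only. The KIT row counted KIT-205, a transcript of 4 exons at the 3′ end of the gene, which covers 50.5% of the exon bases of the full-length KIT-201, so reads from the remainder of KIT were not seen. The counts of these genes were too few to test on most days: EGFR entered the test at day 14 with a log2 fold change of 0.44 and a 95% confidence interval of -2.88 to 3.75, and AXL only in the mean over days with -0.57 and -2.10 to 0.96.

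**Figure D1:**
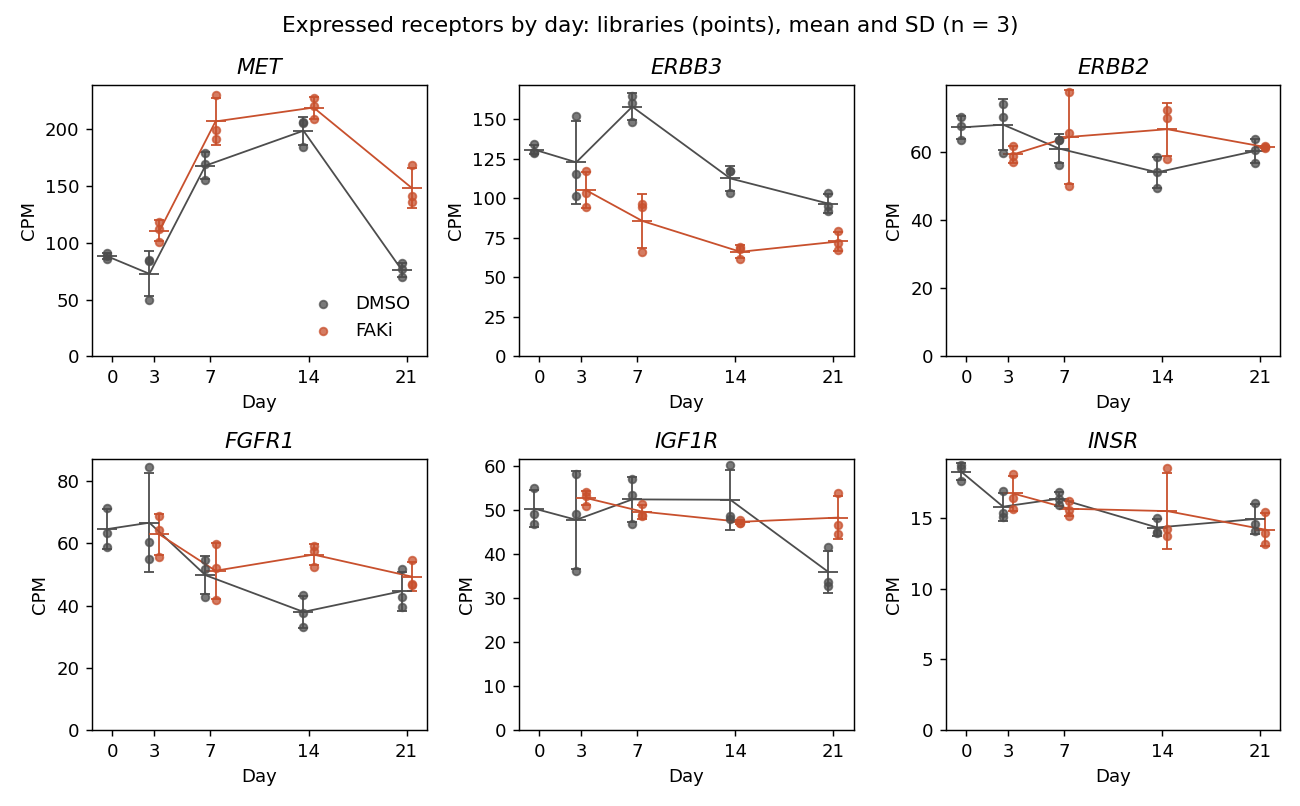
Levels of the 6 expressed receptors in CPM (vertical axes, from 0) by day of culture (horizontal axes), with 1 point per library, and the mean and SD of 3 libraries per group for DMSO (grey) and FAKi (orange). All FAKi points of MET lie above the DMSO points of the same day, and those of ERBB3 lie below them at days 7, 14 and 21.

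MET RNA was higher under FAKi, most clearly at day 21. Over the 4 treated days its mean log2 fold change was 0.51 with a standard error (SE) of 0.079, a fold of 1.42 (adjusted p = 0.000115; all p-values are quasi-likelihood tests of edgeR with the Benjamini-Hochberg procedure over all genes). With the length and GC correction the mean was 0.40 (adjusted p = 0.000122). At day 21 MET was measured at 82.1, 76.7 and 69.7 CPM in DMSO and at 141, 136 and 168 CPM in FAKi. The groups did not overlap, and MET rose 1.98-fold (log2 fold change 0.98, SE 0.14, adjusted p = 0.00724). After correction for length and GC content the rise was 0.76 on the log2 scale (adjusted p = 0.0161). Without FAKi replicate 2 or 3 of day 21 the adjusted p was 0.0545 and 0.0520, with log2 fold changes of 1.05 and 0.88.

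On the earlier days MET was also higher in every FAKi library, but no single day passed the threshold. At day 3 the values were 84.7, 83.4 and 49.6 CPM in DMSO and 100.2, 118 and 112 CPM in FAKi, a log2 fold change of 0.63 (SE 0.21, adjusted p = 0.130). With the length and GC correction it was 0.34 (adjusted p = 0.193). Without DMSO day 3 replicate 1, the change was 0.75 (adjusted p = 0.0108). That library was the only DMSO library of day 3 with a mitochondrial share like that of FAKi, 18.1% against 16.8% to 18.7%. The 2 that were kept held 8.61% and 9.59%, so treatment and mitochondrial share cannot be told apart in that fit. At day 7 DMSO held 179, 155 and 169 CPM and FAKi 199, 191 and 229 CPM (0.30, adjusted p = 0.569). At day 14 DMSO held 184, 205 and 206 CPM and FAKi 208, 220.2 and 227 CPM (0.14, adjusted p = 0.418, and 0.20, adjusted p = 0.0865, when corrected). MET also varied with time in both treatments: the DMSO mean went from 87.9 CPM before treatment to 198 CPM at day 14 and back to 76.2 CPM by day 21, while the FAKi mean went from 110.2 CPM at day 3 to 218.5 and then 148 CPM on the same days. The FAKi effect at day 21 exceeded that at day 14 by 0.82 (SE 0.17, adjusted p = 0.00547), a comparison added after the values were seen. From day 3 to day 21 the effect differed by 0.34 (adjusted p = 0.526), or by 0.41 (adjusted p = 0.301) with the length and GC correction.

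The 250 bases before the start of MET (RefSeq, GRCh38.p14, chr7:116671946-116672195, plus strand) are printed because this receptor had the largest rise among the members. Capitals mark GGGCGG, the core of the SP1 motif, which occurs 2 times here and at least once on either strand in 42.6% of 35116 promoter windows. CATGTG, a core bound by MITF, GGAATG, a core bound by TEAD factors, and TGANTCA, the AP-1 motif, are absent from this window on both strands, and 9.42%, 11.9% and 6.57% of the windows hold them.
MET promoter: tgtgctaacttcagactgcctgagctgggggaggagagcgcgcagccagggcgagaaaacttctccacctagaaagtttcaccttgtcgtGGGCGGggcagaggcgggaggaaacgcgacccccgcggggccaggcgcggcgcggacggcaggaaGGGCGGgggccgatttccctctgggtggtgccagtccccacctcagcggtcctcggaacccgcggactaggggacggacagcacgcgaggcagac

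ERBB3 RNA was lower under FAKi. Its mean log2 fold change over the treated days was -0.56 (SE 0.076, adjusted p = 1.859e-05), a fold of 0.677, and -0.64 (adjusted p = 8.846e-08) with the length and GC correction. At day 14 ERBB3 stood at 117, 117 and 103 CPM in DMSO and at 67.97, 69.03 and 61.4 CPM in FAKi. These groups did not overlap, and ERBB3 fell by 0.77 on the log2 scale (SE 0.10, adjusted p = 2.758e-05). With the length and GC correction the log2 fold change was -0.83 (adjusted p = 1.478e-06).

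The other days pointed the same way with less certainty. At day 7 the values were 165, 160.2 and 148 CPM in DMSO and 66.2, 94.2 and 96.5 CPM in FAKi, all FAKi libraries below all DMSO libraries. The day 7 log2 fold change was -0.88 (SE 0.16) with an unadjusted p of 0.000407, from the same edgeR fit, and an adjusted p of 0.156. Without FAKi day 7 replicate 1 it was -0.72 (adjusted p = 0.00114). At day 21 DMSO held 91.6, 95.2 and 103 CPM and FAKi 67.2, 71.7 and 79.1 CPM, again without overlap. The log2 fold change was -0.39 (SE 0.13, adjusted p = 0.0808), and it passed the threshold with the replicate number as a block (adjusted p = 0.0227), with the length and GC correction (-0.59, adjusted p = 0.00626) and without DMSO day 21 replicate 3 (-0.32, adjusted p = 0.0148). At day 3 the groups overlapped, with 152, 115 and 101 CPM in DMSO and 117, 94.7 and 103 CPM in FAKi (-0.20, adjusted p = 0.510, and -0.27, adjusted p = 0.248, when corrected for length and GC content).

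ERBB2, the kinase-active partner of ERBB3, ranged from 49.3 to 77.5 CPM over all libraries and its groups overlapped on each of the 4 days. Its mean log2 fold change was 0.06, with a 95% confidence interval of -0.09 to 0.21 (adjusted p = 0.610). The widest gap was at day 14, with 49.3, 58.5 and 54.0 CPM in DMSO and 72.1, 69.9 and 57.7 CPM in FAKi (0.30, adjusted p = 0.0854, and 0.17, adjusted p = 0.237, when corrected for length and GC content). Of its exon bases, 3.58% lie opposite MIEN1, and the strand setting of the counting is not given in the sources used here.

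**Figure D2:**
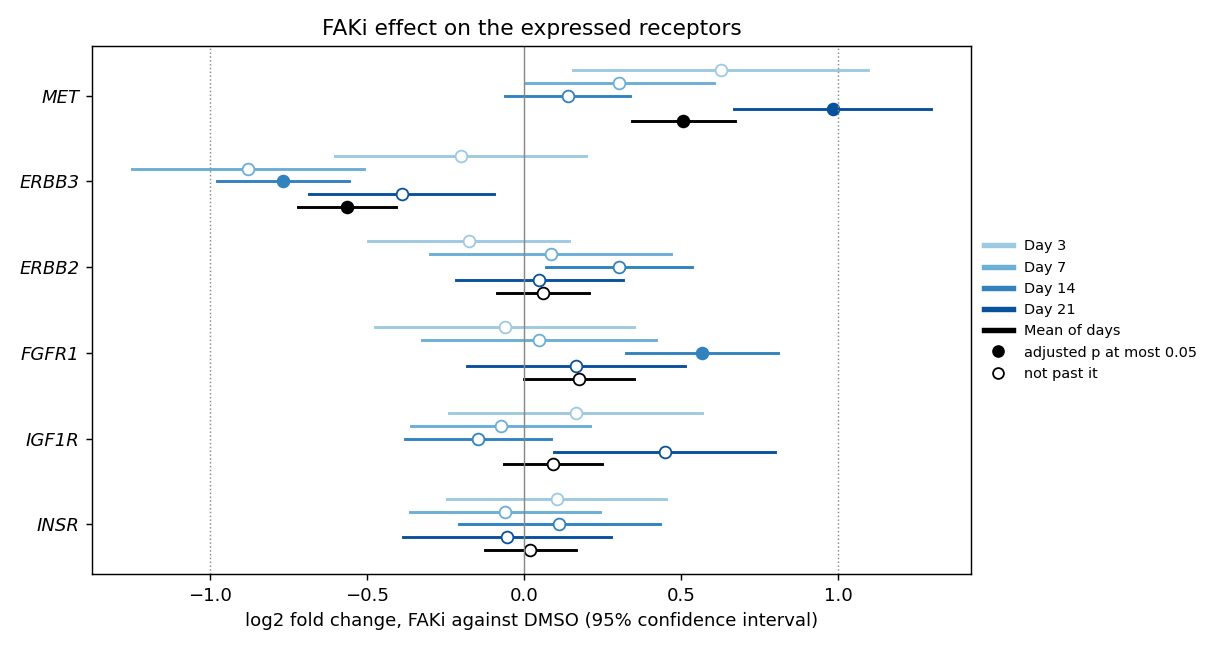
Log2 fold change of FAKi against DMSO (horizontal axis) for the 6 expressed receptors at each day (blue shades) and as the mean over the 4 days (black), with 95% confidence intervals; filled points have an adjusted p of at most 0.05, and dotted lines mark a log2 fold change of 1 in either direction. MET and ERBB3 lie on opposite sides of 0 at every day, and INSR stays near 0.

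The ratio of MET to ERBB3 within a library, each per kilobase, does not depend on how libraries are scaled to each other, and it was higher under FAKi on all 4 days. Differences between libraries by transcript length and GC content can still enter the ratio, and no corrected ratio is given. In DMSO at day 0 the ratio was 0.547 ± 0.022 (SD, n = 3). At day 3 the ratio was 0.481 ± 0.098 in DMSO and 0.866 ± 0.16 in FAKi. Day 7 gave 0.865 ± 0.072 and 2.01 ± 0.40, and day 14 gave 1.44 ± 0.17 and 2.70 ± 0.27. By day 21 the ratio was 0.645 ± 0.090 and 1.66 ± 0.10. The groups did not overlap on any of these days, and no test is given because the pair was chosen with the changes of both genes known. In bulk RNA, fewer cells with a transcript and less of it per cell cannot be told apart. The sums of the melanocyte markers also differed between treatments without overlap at days 7, 14 and 21, and their part in the changes of MET and ERBB3 was not tested.

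**Figure D3:**
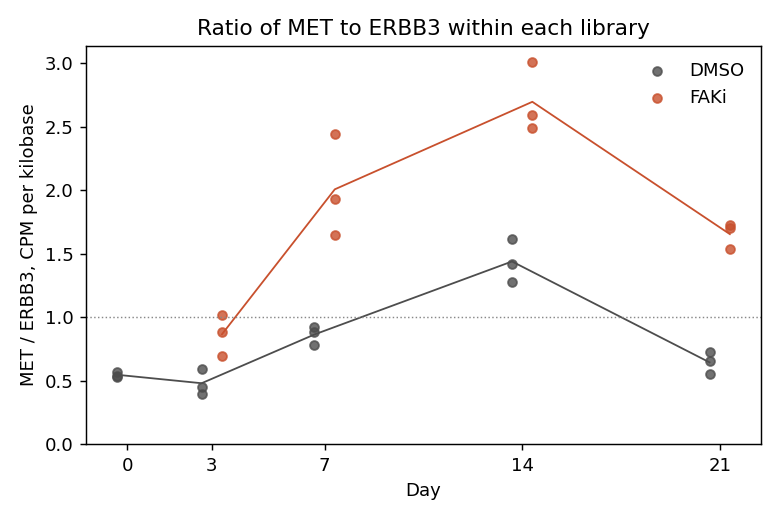
Ratio of MET to ERBB3 (vertical axis, each in CPM per kilobase) by day (horizontal axis), with 1 point per library and lines through the means of 3 libraries for DMSO (grey) and FAKi (orange); the dotted line marks equal levels. The FAKi libraries lie above the DMSO libraries at every day, between 2.49 and 3.01 at day 14 against 1.28 to 1.62.

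FGFR1, a receptor for fibroblast growth factors, was higher under FAKi at day 14. There it was at 33.0, 43.3 and 37.6 CPM in DMSO and at 57.6, 58.9 and 52.5 CPM in FAKi, without overlap. FGFR1 rose by 0.57 on the log2 scale (SE 0.12, adjusted p = 0.00226), and by 0.47 with the length and GC correction (adjusted p = 0.00178). At days 3, 7 and 21 the groups overlapped and the log2 fold changes were -0.06, 0.05 and 0.17, the last of them -0.0042 when corrected. The mean over days was 0.18, with a 95% confidence interval of 0.0015 to 0.35 (adjusted p = 0.162).

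IGF1R, the receptor of insulin-like growth factors, stood on opposite sides of its controls at days 14 and 21. At day 14 DMSO held 48.1, 60.2 and 48.8 CPM and FAKi 47.1, 47.9 and 47.1 CPM, a log2 fold change of -0.15 (adjusted p = 0.480). At day 21 DMSO held 32.8, 33.6 and 41.5 CPM and FAKi 44.5, 46.5 and 53.9 CPM, a log2 fold change of 0.45 (adjusted p = 0.0876). The groups overlapped on neither day, but at day 14 the nearest FAKi and DMSO libraries were at 47.86 and 48.06 CPM. The day 21 value passed the threshold with the replicate block (adjusted p = 0.0137) and without DMSO day 21 replicate 3 (0.58, adjusted p = 0.000361), but with the length and GC correction it was 0.10 (adjusted p = 0.474). IGF1R has the longest counted transcript of the members, at 12194 bases. INSR, the insulin receptor, ranged from 13.2 to 18.7 CPM and its groups overlapped on each of the 4 days. Its mean log2 fold change was 0.02, with a 95% confidence interval of -0.12 to 0.17 (adjusted p = 0.903). With the length and GC correction INSR was at -0.10 in the mean (adjusted p = 0.385) and at -0.35 at day 21 (adjusted p = 0.146).

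The members' calls are set beside those of all genes. At day 3 none of the 6 members tested was called, as was the case for 0% of 22846 genes in edgeR. Of all genes 5442 had an unadjusted p under 0.05 there, among them 1 member, MET, and DESeq2 also called no member. At day 7 none of 6 was called, against 0.0269% of all genes in edgeR, with 1955 genes and 2 members, ERBB3 and MET, at an unadjusted p under 0.05. DESeq2 called 1 member at day 7, ERBB3. The share of all genes that DESeq2 called is not given here, so its counts cannot be set beside a background. At day 14 ERBB3 and FGFR1, 2 of 7, were called, against 12.4% of all genes, and at day 21 MET, 1 of 6, against 11.6%, or MET, ERBB3 and IGF1R, 3 of 6, with the replicate block, against 29.9% under that block. In the mean over days MET and ERBB3, 2 of 8, were called, against 15.7%. No member passed the study's further limit, an absolute log2 fold change over 1, which 1.66% of genes passed at day 14, 5.28% at day 21 and 1.89% in the mean. For the change of the effect from day 3 to day 21 none of 7 members was called and none had an unadjusted p under 0.05 in edgeR, against 2.93% of all genes called, and DESeq2 called none of them either. For the change from day 14 to day 21 MET, 1 of 7, was called, against 12.7%. Groups without overlap were common: they made up 31%, 16.8%, 29% and 35.3% of all tested genes on the 4 days in order. The comparisons of FAKi with DMSO, their mean and their changes with time share libraries and are not independent of each other.

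The DMSO libraries of days 0 and 21 also differed in these receptors. From day 0 to day 21 ERBB3, FGFR1 and IGF1R, 3 of 6 tested, fell by 0.44, 0.54 and 0.49 on the log2 scale (adjusted p = 0.0155, 0.0173 and 0.0226), against 44.9% of all genes called. FGFR1 went from 58.8, 63.4 and 71.4 CPM to 42.7, 39.5 and 51.6 CPM. IGF1R went from 47.0, 49.2 and 54.9 CPM to 32.8, 33.6 and 41.5 CPM. In both genes every day 21 library lay below every day 0 library, as one group lay wholly above or below the other for 58.1% of all tested genes. The median over genes of 4 to 13 kilobases was -0.46 in this comparison, and 0.59 under 2 kilobases, and mitochondrial genes took 17.0% to 18.8% of counts at day 0 and 5.49% to 9.75% at day 21. With the length and GC correction FGFR1 was at -0.31 (adjusted p = 0.0310), ERBB3 at -0.09 (adjusted p = 0.467) and IGF1R at 0.16 (adjusted p = 0.209). Leaving out 1 library changed the number of calls to between 0 and 5: it was 5 without DMSO day 21 replicate 3, 1 without DMSO day 0 replicate 1, and 0 without any of the other 4.

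Among 22 ligands of these receptors and of their close relatives, 20 were tested in the mean over days, 2 rose and 6 fell, against the 15.7% of all genes called, with a median log2 fold change of -0.13 beside 0.01 over all genes. NRG3, a neuregulin that is known to bind ERBB4 and not ERBB3, rose by 0.61 (SE 0.13, adjusted p = 0.00216) at a mean level of 26.3 CPM. Of the ligands that fell, HBEGF, which binds EGFR, was at -0.43 (adjusted p = 0.0187) and GAS6, which binds AXL and its relatives TYRO3 and MERTK, at -0.61 (adjusted p = 0.00230). IGF1, IGF2 and FGF5 were called on very few reads: IGF1 was at 1.61 (adjusted p = 0.0314) with a mean of 0.271 CPM, IGF2 at -1.74 (adjusted p = 0.00728) with 0.753 CPM, and FGF5 at -2.47 (adjusted p = 0.0396) with at most 5 counts in a library. IGF1 was called in 24 of 33 alternative analyses and FGF5 in 14 of 32, the replicate block not among them. HGF, the ligand of MET, had at most 5 counts in any library, a mean of 0.049 CPM. On single days, 1 ligand rose and 1 fell of 17 at day 14, and 2 rose and 3 fell of 16 at day 21, beside 12.4% and 11.6% of all genes called.

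NRG1, NRG2 and PROS1 lie outside the naming rule and were picked after their values were seen. NRG1, a neuregulin that binds ERBB3, averaged 1.36 CPM in DMSO and 5.22 CPM in FAKi at day 21 (1.98, adjusted p = 0.0171), and at day 14 it averaged 5.36 and 3.44 CPM (-0.64, adjusted p = 0.158). NRG2, a further neuregulin, had a mean level of 15.8 CPM, against 3.46 CPM for NRG1. Its group means were 18.05 CPM in DMSO and 19.64 CPM in FAKi at day 3, and 17.74 and 13.22 CPM at day 7. At day 14 the NRG2 means were 17.37 and 12.6 CPM, and at day 21 they were 15.66 and 10.51 CPM. PROS1, protein S, a ligand of TYRO3 and MERTK, rose by 0.49 at day 14 (adjusted p = 0.00183) and fell by 0.52 at day 21 (adjusted p = 0.0446). The change of its FAKi effect from day 3 to day 21 was -1.25 (SE 0.20, adjusted p = 0.00702).

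Of 31 other receptor tyrosine kinases, Eph receptors left out, 22 were tested in the mean over days, 3 rose and 2 fell, against 15.7% of all genes called, with a median of -0.11. At day 14, 1 of 17 rose and 3 fell, 23.5% of this list beside 12.4% of all genes called. At day 21, 1 of 19 rose and 1 fell, 10.5% beside 11.6%. With the replicate block 3 rose and 3 fell at day 21, beside 29.9% of all genes called under that block. With the length and GC correction, 1 rose and 1 fell at day 21. NTRK2, the receptor of brain-derived neurotrophic factor, rose by 1.33 (SE 0.19, adjusted p = 3.807e-05) at a mean of 3.02 CPM. MERTK rose by 0.54 (adjusted p = 0.0244) and FGFR2 by 0.53 (adjusted p = 0.0127). By group means, FGFR2 was lower in FAKi at day 14, with 4.42 CPM in DMSO and 3.37 CPM in FAKi. It was higher on the other days, most at day 21 with 1.61 and 5.12 CPM. ALK fell by 1.72 (SE 0.20, adjusted p = 1.736e-06), with group means of 4.50 CPM in DMSO and 0.598 CPM in FAKi at day 21, and FGFR4 was at -0.35 (adjusted p = 0.0114). The group means of FGFR4 were lower in FAKi at days 3, 7 and 21 but higher at day 14, with 8.52 CPM in DMSO and 11.1 CPM in FAKi. The change of the ALK effect from day 3 to day 21 was -1.999 (adjusted p = 0.0459). MERTK was called in 31 of 33 alternative analyses, and the other 4 in all 33.

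Downstream of the receptors, 2 of 18 adaptors and proximal signalling genes, 11.1%, were called in the mean over days, both higher, beside 15.7% of all genes, with a median of 0.05. PIK3CB, a catalytic subunit of PI3K, rose by 0.54 (SE 0.076, adjusted p = 3.009e-05) and IRS2, an adaptor of the insulin and IGF receptors, by 0.36 (adjusted p = 0.0107). At day 14 most calls of this list were in the other direction. Of 17 tested, 1 rose, PIK3CB, and 4 fell, 29.4% of this list beside 12.4% of all genes called. The 4 were SOS1, lower by 0.70, GRB10 by 0.85, PIK3R1 by 0.48 and PTPN11 by 0.33 (adjusted p = 0.000419, 4.091e-05, 0.00678 and 0.0317). These genes are named here after their values were seen. At day 21, 1 of 18 rose, IRS2, and none fell, beside 11.6% of all genes called, or 4 and 0 with the replicate block, beside 29.9%. With the length and GC correction, 1 adaptor rose and 1 fell at day 21. Of 15 inhibitors of receptor signalling, 1 rose and 2 fell in the mean over days, 20% beside the 15.7% of all genes, with a median of -0.07. At day 14, 1 inhibitor rose and 3 fell, beside 12.4% of all genes called. At day 21, 1 rose and 1 fell, beside 11.6%, or 5 and 2 with the replicate block, beside 29.9%. With the length and GC correction, 1 inhibitor rose and 2 fell at day 21. The phosphatase gene PTPRJ rose by 0.42 (adjusted p = 0.000635). SPRY4, a feedback inhibitor induced by ERK signalling, fell by 0.60 (SE 0.12, adjusted p = 0.00198), and SOCS2, a feedback inhibitor of cytokine and growth hormone signalling, by 0.76 (SE 0.13, adjusted p = 0.000424). At days 3 and 7 edgeR called 0 genes of the 4 lists, with 3 and 3 ligands, 11 and 3 other receptors, 4 and 3 adaptors and 3 and 4 inhibitors at an unadjusted p under 0.05, and DESeq2 called 3 and 0, 3 and 1, 2 and 0, and 1 and 2 of them. For these lists, the shares of all genes called by DESeq2 and with the length and GC correction are not given here.

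**Figure D4:**
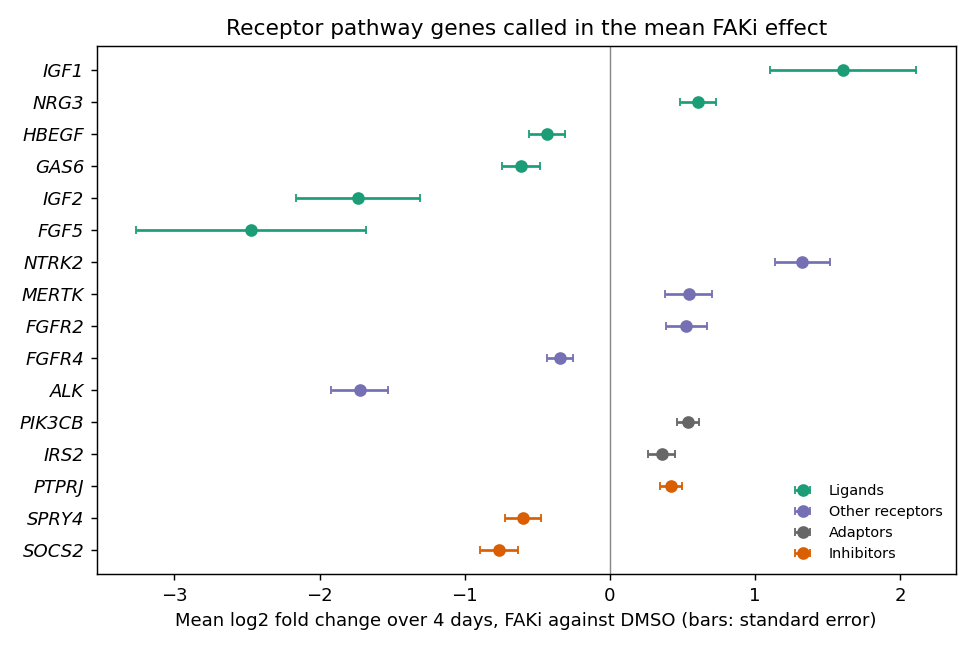
Mean log2 fold change of FAKi against DMSO over the 4 days (horizontal axis) with its standard error, for the called ligands (green), other receptor tyrosine kinases (purple), adaptors (grey) and inhibitors (orange), at most 4 per list and direction. ALK at -1.72 and NTRK2 at 1.33 lie farthest from 0 among the receptors.

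Over the 27 libraries, the profile of MET was most like those of CHST9 (Pearson r = 0.95), PLXNC1 (r = 0.94) and PLEKHH1 (r = 0.94), among 16980 other genes of at least 1 CPM. ERBB3 was most like BMF (r = 0.95), SFRP1 (r = 0.93) and MTSS1 (r = 0.92). FGFR1 was nearest to COL4A2 (r = 0.91), FASN (r = 0.90) and FRMD8 (r = 0.87), and ERBB2 to TCF3 (r = 0.90), GNA11 (r = 0.89) and FLNA (r = 0.85). IGF1R followed SON, BIRC6 and SMG1 (r = 0.92, 0.92 and 0.91). INSR had no profile as near, with SLIT2, NCK2 and NR4A3 at r = 0.76, 0.74 and 0.73. These likenesses are descriptions over libraries that share days, treatment and depth.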

How the data were processed

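Poly(A) libraries were made with a stranded kit. Per the labels, the authors used Trim Galore, FastQC 0.11.8, STAR 2.5.3a and HOMER on hg38, and they deposited raw counts per gene, summed over the exons of 1 GENCODE 39 transcript per gene, without normalization. Strand setting and treatment of multiply mapped reads are not given in the sources used here. The submitters named DESeq2 for testing.

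From these deposited counts, CPM were computed with TMM factors over all 27 libraries (12161994 to 43651551 counts), which limits precision for low genes. Each comparison was fitted to its own libraries with edgeR 4.0.16 (glmQLFit, glmQLFTest, R 4.3.3), keeping genes with at least 20 counts in total, with Benjamini-Hochberg adjustment over all genes tested, and the threshold for a call was an adjusted p of 0.05. The mean FAKi effect averaged the 4 days in 1 fit. Scripts were tested on simulated data. With 3 libraries against 3, an exact permutation test cannot go below p = 0.1, so none was run.

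Named were all members, from each pathway list the called genes with the largest mean effect, up to 4 per direction, PTK2, GNAQ, and the 3 genes most like each expressed member. The members and lists were chosen with earlier results of these data known. Same-numbered libraries of day 21 deviated together from their group means (r = 0.443, 0.128 and 0.658), so the replicate number was also used as a block. At days 3, 7 and 14 r lay between -0.144 and 0.107. Alternatives were RLE and upper quartile scaling, other count filters, DESeq2 1.42.0, the block, all libraries in 1 fit, leaving out each library, and, added after the data were seen, removal of mitochondrial genes and a loess correction (span 0.5) for transcript length and GC content, which 99.5% of genes had. The description of DMSO day 21 replicate 3 names another day than its title, and the title was used.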

Additional observations from a re-analysis of the deposited data

Results flagged for a closer look

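IGF1R stood on opposite sides of its controls on 2 days, by a narrow margin at day 14. At day 14 every FAKi library lay below every DMSO library, with a log2 fold change of -0.15 (edgeR adjusted p = 0.480), but the nearest libraries were at 47.86 and 48.06 CPM. At day 21 every FAKi library lay above every DMSO library, with 0.45. Groups without overlap made up 29% and 35.3% of all tested genes on these days. The test of the difference between these days gave 0.57 (SE 0.19, edgeR adjusted p = 0.0591), and 0.26 (adjusted p = 0.195) with the length and GC correction. With the replicate block it passed the threshold (adjusted p = 0.0416).

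MET had a larger FAKi effect at day 21 than at day 14, by 0.82 on the log2 scale (SE 0.17, edgeR adjusted p = 0.00547). This comparison was added after the values were seen. With the length and GC correction the difference was 0.54 (adjusted p = 0.0481). Mitochondrial shares moved with the same contrast, at 21.95% to 26.97% in DMSO and 20.7% to 22.1% in FAKi at day 14, against 5.49% to 9.75% and 10.7% to 11.2% at day 21, and their part in the result was not tested.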

How the results depend on the processing

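Over 1164 values of single members under alternatives, 1103 kept their side of the threshold and, where called, their direction, 30 lost a call, 29 gained one and 2 reversed: IGF1R between DMSO days 0 and 21, 0.16 with the length and GC correction and 0.16 with the replicate block added to it. In the mean over days MET and ERBB3 were called in 34 of 35 alternatives, and at day 14 ERBB3 and FGFR1 in 17 of 18. The exception was a required absolute log2 fold change over 1, which left 0 calls at days 14 and 21, in the mean, between the DMSO groups and for the change from day 14 to day 21. MET at day 21 was called in 15 of 18.

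At day 3 (0 members called) there was 1 call without a count filter, 1 when 1 fit held all libraries, and 0 to 1 on leaving out a library. At day 7 (0) there was 1 without a filter, 1 with DESeq2, 1 when 1 fit held all libraries, and 0 to 1 on leaving out a library. At day 21 (1) there were 2 with DESeq2, 3 with the replicate block, 3 when 1 fit held all libraries, 2 with the length and GC correction, 2 with the block added to it, and 0 to 4 on leaving out a library. Between the DMSO groups (3) there was 1 with the length and GC correction, 1 with the block added, 0 at an adjusted p limit of 0.01, and 0 to 5 on leaving out a library. For the change from day 14 to day 21 (1) there were 2 with upper quartile scaling, filterByExpr, DESeq2, the replicate block, the length and GC correction and the block added to it, and 1 to 3 on leaving out a library. Over all genes, the block raised the calls at day 21 from 2692 to 6930. For the other counts under alternatives in this paragraph, the share of all genes called is not given here. Leaving out a library gave 2 to 3 calls at day 14 and in the mean. The block changed no other call of a member. Depth limits EGFR, AXL and KIT, which had too few counts to be compared on most days.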
